A study of Mus musculus with 2 samples.

Results

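The genes described here encode the proteins of the cytosolic ribosome. They were chosen by name: all 87 of the 27998 genes listed whose symbol is Rpl or Rps followed by a digit, or Rpsa, Rplp0, Rplp1 or Rplp2, leaving out symbols with "-ps" and the Rps6k kinases. Of these, 46 are proteins of the large subunit, 31 are proteins of the small subunit and 9 are further copies of such a gene (Rpl3l, Rpl6l, Rpl7l1, Rpl10l, Rpl22l1, Rpl36al, Rpl39l, Rps27l and Rps27rt). The remaining gene, Rps19bp1, encodes a protein that binds Rps19 and met the rule by its name alone.

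The cytosolic ribosome is made of a large and a small subunit, each a core of ribosomal RNA with a set of small, mostly basic proteins. Those proteins are needed in roughly equal numbers, and their mRNAs are among the most abundant in a dividing or protein-making cell. In vertebrates most of these mRNAs begin with a pyrimidine-rich stretch, the terminal oligopyrimidine (TOP) tract, through which the kinase complex mTORC1 and the protein Larp1 adjust their translation together.

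The cells were live CD45+ leukocytes sorted from dorsal neck skin of C57Bl/6 mice and measured by droplet single-cell RNA sequencing of 3′ ends. All mice received Biostir ointment, which contains house dust mite (D. farinae), on shaved skin over 3 weeks, with 2 applications in each week that followed a wash of the skin with 2% SDS. The groups were WT mice and IL31RAKO mice, which lack the alpha chain of the receptor for interleukin 31, with 1 library from 4 pooled mice in each. Skin without ointment was not analysed here, and with 1 library a group, pooled animals and genotype cannot be told apart from the library itself. Il31ra had 11 UMIs (unique molecular identifiers, which count RNA molecules rather than reads) in the WT library and 26 in the IL31RAKO library. A 3′ tag outside the deleted part would be counted in both, and the position of the deletion is not given in the sources used here, so this gene did not check the labels, whose names are used throughout.

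Cells were barcodes with 500 or more UMIs, 250 or more genes and under 10% of UMIs from mitochondrial genes: 11934 in the WT library and 14619 in the IL31RAKO library, with medians of 2918.5 and 3181 UMIs. The 2 lists of cells shared 247 barcodes. Marker genes, none of them a ribosomal protein gene, placed 9457 and 12173 cells in 21 classes, of which 12 held 100 or more cells in each library and were compared. Marker frequencies are given for WT, then IL31RAKO. Cd3g was found in 97.6% to 100% of cells of every T class and C1qa in 91.3% and 92.1% of macrophages. Cd207 was found in 100% of Langerhans cells, whose gate required it. Foxp3 was found in 53.9% and 55.1% of regulatory T cells and Ly6c2 in 59.3% and 50.1% of monocytes. Outside its class, C1qa was found in 84.0% and 87.3% of Langerhans cells and 32.1% and 44.4% of monocytes. Cd8a was found in 22.4% and 24.8% of CD4 T cells. Cd3g was also found in 24.0% and 21.4% of neutrophils and in 60.4% and 50.2% of Langerhans cells, and the part of free RNA or doublets in this was not tested. S100a8, a neutrophil marker, was found in 8.15% to 31.1% of cells of the other 11 compared classes in the WT library and in 27.9% to 69.7% in the IL31RAKO library. From genes that a class should lack, free RNA was estimated at 6.07% to 9.04% of UMIs in the 6 T classes of the WT library and 12.2% to 13.2% in the IL31RAKO library, and at 11.6% to 23.8% against 7.23% to 13.5% in the 6 myeloid classes.

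Start sites are shown for some of the genes named in the comparison of lymphoid with myeloid cells, picked after their values were seen. They are also shown for Rps27 and its copy Rps27rt, which was lower in all 12 compared classes of the IL31RAKO library. Each line gives 15 bases before and 15 bases from the annotated start, 5′ to 3′ on the strand of the gene, from RefSeq (GRCm38.p6, the assembly behind mm10). Capitals mark the longest unbroken run of C and T where it reaches 8 letters.
Rpl13a, chr7:45128731-45128760, minus strand: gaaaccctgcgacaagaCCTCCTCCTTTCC
Rpl4, chr9:64173372-64173401, plus strand: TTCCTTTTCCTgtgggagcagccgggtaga
Rps9, chr7:3704026-3704055, plus strand: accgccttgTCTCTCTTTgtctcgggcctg
Rpl35a, chr16:33056467-33056496, plus strand: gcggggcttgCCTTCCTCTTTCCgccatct
Rpl38, chr11:114668565-114668594, plus strand: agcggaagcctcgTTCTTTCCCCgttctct
Rpl10, chrX:74270801-74270830, plus strand: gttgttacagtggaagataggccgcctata
Rps28, chr17:33824548-33824577, minus strand: ggtaccgcgtgcggtctcgcgagagcgaaa
Rpl27a, chr7:109519180-109519209, plus strand: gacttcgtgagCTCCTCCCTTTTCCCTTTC
Rps27, chr3:90213634-90213663, minus strand: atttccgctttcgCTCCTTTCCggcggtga
Rps27rt, chr9:114982725-114982754, minus strand: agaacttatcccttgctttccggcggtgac

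A start was listed for 66 of the 87 genes. A run of 8 or more letters C or T lay in this window in 25 of the 57 subunit proteins with a start (43.9%), in 2 of the 9 other members with a start (22.2%) and in 13.9% of all 27025 genes. Only the strand of the gene was read, and Rpl35a is shown at the middle of its 3 listed starts. Of the genes shown, Rpl13a and Rpl4 were higher in lymphoid cells, as given further on, and both had a run. Of those lower in lymphoid cells, Rps9, Rpl35a and Rpl38 had a run and Rpl10 and Rps28 did not. The genes shown are a part of those called, so this is no count over all of them. No run in a window of this size says only that the letters were not there at the annotated start.

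Ribosomal protein mRNA made up 22.0% of the UMIs of the cells kept from WT and 21.1% of those of the cells kept from IL31RAKO. Because 3′ tags count a molecule once whatever its length, counts per 1000000 UMIs (CPM) of different genes are set side by side without a correction for length. Rpl41, a protein of 25 amino acids, was the highest at 7272 CPM in WT and 6600 in IL31RAKO cells. Next came Rpl37a (5771 and 5602 CPM), Rps29 (5312 and 6033), Rps14 (4937 and 4685) and Rpl13 (4677 and 4746), all present in at least 96.6% of cells of either library. The lowest of the 77 subunit proteins was Rpl5, a protein that travels to the ribosome together with 5S RNA, at 825 and 760 CPM. The copies took 1.44% and 1.38% of the members' UMIs.

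At the other end lay copies and the binding protein. Rpl3l, a form of Rpl3 known from heart and skeletal muscle, had 1.69 CPM in either library, and Rpl39l, a form of Rpl39 known from testis, had 8.54 CPM in WT and 4.74 in IL31RAKO cells. Rpl6l, annotated as a processed pseudogene, followed at 19.9 and 17.2 CPM, then Rps19bp1 at 35.0 and 33.7 and Rpl7l1 at 46.5 and 45.9. Rpl10l, an intronless copy of Rpl10, had 0 UMIs in both libraries and was the only member without a count.

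The share of a cell's UMIs that came from these genes depended on the class, and neutrophils and epidermal-type T cells had the lowest shares of the 12. In neutrophils the sum over all cells was 11.1% in WT (95% exact binomial interval 11.0% to 11.2%) and 11.5% in IL31RAKO (11.5% to 11.6%). All intervals given here cover counting error only. In epidermal-type T cells, named from markers of the dendritic epidermal T cell, it was 16.4% and 17.1%. The other 10 classes lay between 19.2% and 23.4%, with CD4 T cells at 23.2% in WT and 23.0% in IL31RAKO and other T cells at 23.1% and 23.4%. Neighbours within this group were closer to each other than the libraries were for some classes. Macrophages stood at 23.1% in WT and 21.2% in IL31RAKO, and Langerhans and regulatory T cells, given below, were also further apart than neighbours.

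**Figure D1:**
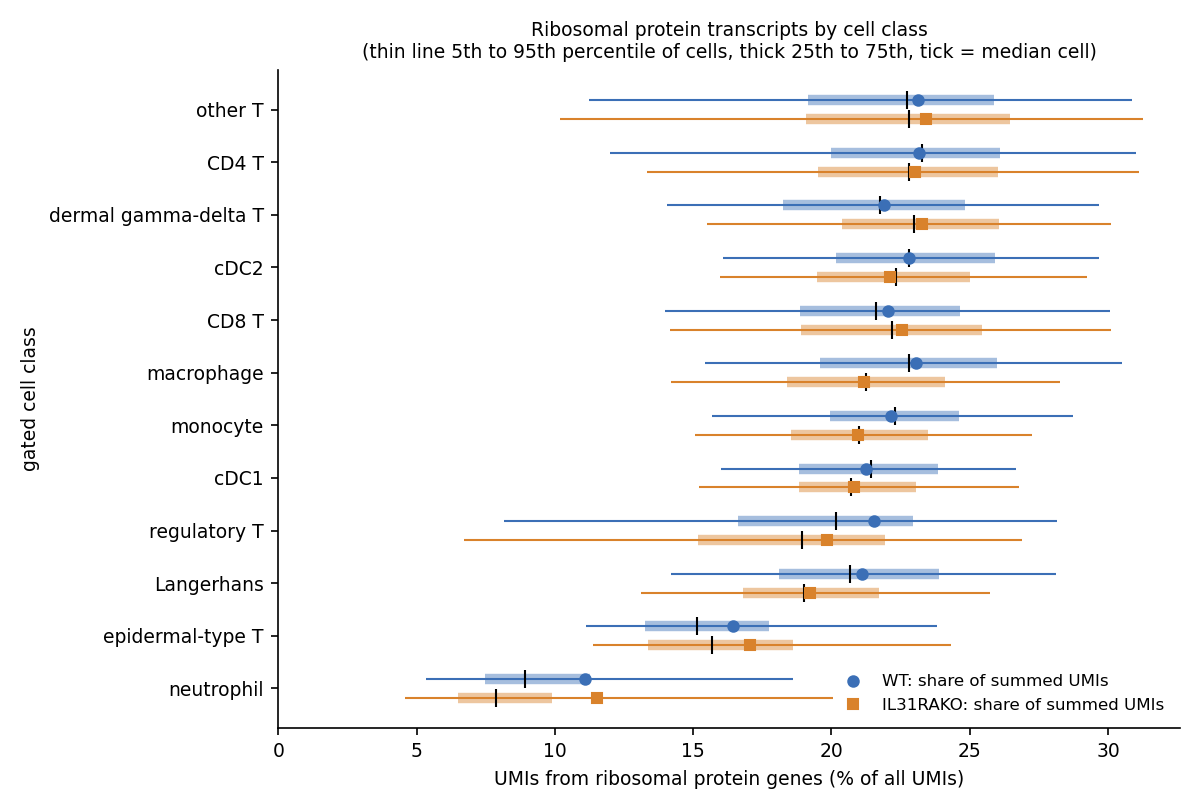
Share of UMIs from ribosomal protein genes (percent, horizontal) in 12 gated classes (vertical) of the WT (blue circles) and IL31RAKO (orange squares) libraries. Markers are shares of summed UMIs, ticks the median cell, thick bars the middle 50% and thin lines the 5th to 95th percentile of cells; neutrophils and epidermal-type T cells sit to the left of the other classes in both libraries.

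Classes with fewer cells widened the range and are given with no comparison. Keratinocytes, which the CD45 gate should have removed, held 32.3% in 78 WT cells and 29.0% in 36 IL31RAKO cells. B cells held 28.5% and 31.2% (9 and 22 cells). The ILC2 gate, named for the innate lymphocytes of type 2 responses, held 24.7% and 23.8% (88 and 135 cells). Cd3g was found in 64.8% of its WT and 62.2% of its IL31RAKO cells, and the part of T cells in this gate was not tested. Below the other classes lay basophils at 14.8% and 13.5% (51 and 78 cells) and mast cells at 7.44% and 10.9% (4 and 13 cells). Neutrophils, basophils and mast cells thus all lay under every T, monocyte, macrophage and dendritic cell class, in both libraries.

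Cells of 1 class spread widely. In WT CD8 T cells the median cell had 21.6% and the middle 50% of cells ran from 18.9% to 24.7%, while in WT regulatory T cells the median was 20.1% and that range 16.6% to 23.0%. Thinning every cell to 1000 UMIs, which left out shallower cells, gave medians of 21.8% in WT and 22.2% in IL31RAKO CD8 T cells, where 10 and 13 cells were left out. Macrophage medians after thinning were 23.1% and 21.4%, with 200 and 249 cells left out. In neutrophils the median cell lay under the sums, at 8.92% in WT and 7.88% in IL31RAKO. Thinned neutrophil medians were 8.70% and 7.70%, with 99 and 351 cells left out, but 17.4% and 16.2% in the 30 and 185 cells deep enough for 2000 UMIs. The deepest barcodes of the neutrophil gate thus had larger shares than its other barcodes, and the part of doublets in this was not tested.

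Cycling T cells, those with cell cycle genes, had lower shares than the T cells without them in both libraries. In the WT library it was 20.9% in 459 cycling and 21.9% in 4490 other T cells, and in the IL31RAKO library 21.1% in 271 and 22.1% in 3690. For cDC2, the class of conventional dendritic cells marked by Cd209a, the shares were 20.6% in cycling and 23.0% in other WT cells, and 20.2% and 22.3% in IL31RAKO cells. Doublets were scored more often among the cycling cells, at 17.4% against 6.17% of WT T cells and 31.4% against 7.41% of WT cDC2, and their part in the difference was not tested. RNA of droplets without a cell held 20.6% in WT and 20.4% in IL31RAKO.

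Between the libraries, the summed share moved by less than 10% in each of the 12 classes, and the direction was not shared by all. It was lower in IL31RAKO Langerhans cells (21.1% in WT and 19.2% in IL31RAKO, ratio 0.911, 95% exact interval 0.908 to 0.914), macrophages (23.1% and 21.2%, ratio 0.918), regulatory T cells (21.5% and 19.8%, ratio 0.922), monocytes (22.2% and 21.0%, ratio 0.947), cDC2 (22.8% and 22.1%, ratio 0.969) and cDC1 (21.3% and 20.8%, ratio 0.979). It was higher in IL31RAKO epidermal-type T cells (16.4% and 17.1%, ratio 1.04), CD8 T cells (22.0% and 22.5%, ratio 1.02) and other T cells (23.1% and 23.4%, ratio 1.01). These 9 directions held under all 11 alternatives tried, among them removing doublets, thinning, matching depth, subtracting free RNA and leaving out the shared barcodes. S100a8 was found in more cells of the IL31RAKO library in all 9 classes (10.9% in WT and 36.8% in IL31RAKO macrophages, 31.1% and 69.7% of Langerhans cells, 9.86% and 33.0% of CD8 T cells), and the part of RNA from neutrophils in these ratios was not tested beyond the subtraction of free RNA. With 1 library a genotype there is no replicate spread to set these ratios against, and no test was made.

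The other 3 classes changed side. Dermal gamma-delta T cells, the skin T cells that make interleukin 17, had 21.9% in WT and 23.3% in IL31RAKO (ratio 1.06), but the ratio was 0.991 with a stricter gate. Of these cells 189 of 582 were cycling in the WT library and 25 of 208 in the IL31RAKO library, and without cycling cells the ratio was 1.04. The CD4 T cell ratio was 0.994 and became 1.003 with free RNA subtracted. For neutrophils the ratio of 1.04 ranged from 0.870 without scored doublets to 1.254 with free RNA subtracted, and was below 1 under 4 of the 11 alternatives.

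Single genes were compared by a fixed fold. A gene was counted as past the fold where its CPM was at least 25% higher or at least 20% lower in IL31RAKO than in WT, with 200 or more UMIs in the class over both libraries. In the myeloid classes, 3 of 81 tested members were past it in neutrophils, against 28.1% of all tested genes, and 1 of 83 in monocytes (14.6% of all), 1 of 84 in macrophages (13.2%), 1 of 82 in cDC1 (11.0%), 1 of 84 in cDC2 (9.01%) and 1 of 83 in Langerhans cells (15.3%). Among T cells it was 1 of 81 in CD4 (11.7% of all), 2 of 83 in CD8 (12.6%), 2 of 81 in regulatory (16.7%), 2 of 82 in dermal gamma-delta (27.7%), 0 of 81 in epidermal-type (11.3%) and 1 of 84 in other T cells (11.7%). Most members are abundant genes, and the share of equally abundant genes past the fold was not computed. In all, 4 pairs of a member and a class were past the fold upward (Rpl22l1 in CD8 T cells and neutrophils, Rpl13 in neutrophils and Rpl7l1 in dermal gamma-delta T cells). Downward there were 12: Rps27rt in 9 classes, Rps28 in regulatory T cells, and Rps27l in neutrophils and dermal gamma-delta T cells. Of the upward pairs, Rpl7l1 rested on 173 UMIs in WT and 59 in IL31RAKO, and its interval included 1 (ratio 1.26, 0.925 to 1.71). The downward count was 25 with scored doublets removed and 27 with no minimum of UMIs, and the upward count 9 with no minimum, 7 with a stricter gate and 2 with a minimum of 1000 UMIs. The share of all genes past the fold under these alternatives is not given here, so the changed counts are not read as a trait of the members.

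The members' median ratio followed the summed share: it was 0.913 in Langerhans cells, where 79 of 83 members lay below 1, 0.917 in regulatory T cells (80 of 81), 0.918 in macrophages (78 of 84) and 0.941 in monocytes (77 of 83). In dermal gamma-delta T cells 67 of 82 members lay above 1 with a median of 1.05, in epidermal-type T cells 64 of 81 (1.05) and in CD8 T cells 61 of 83 (1.03). Over all tested genes the medians of these classes lay between 0.958 and 1.03.

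**Figure D2:**
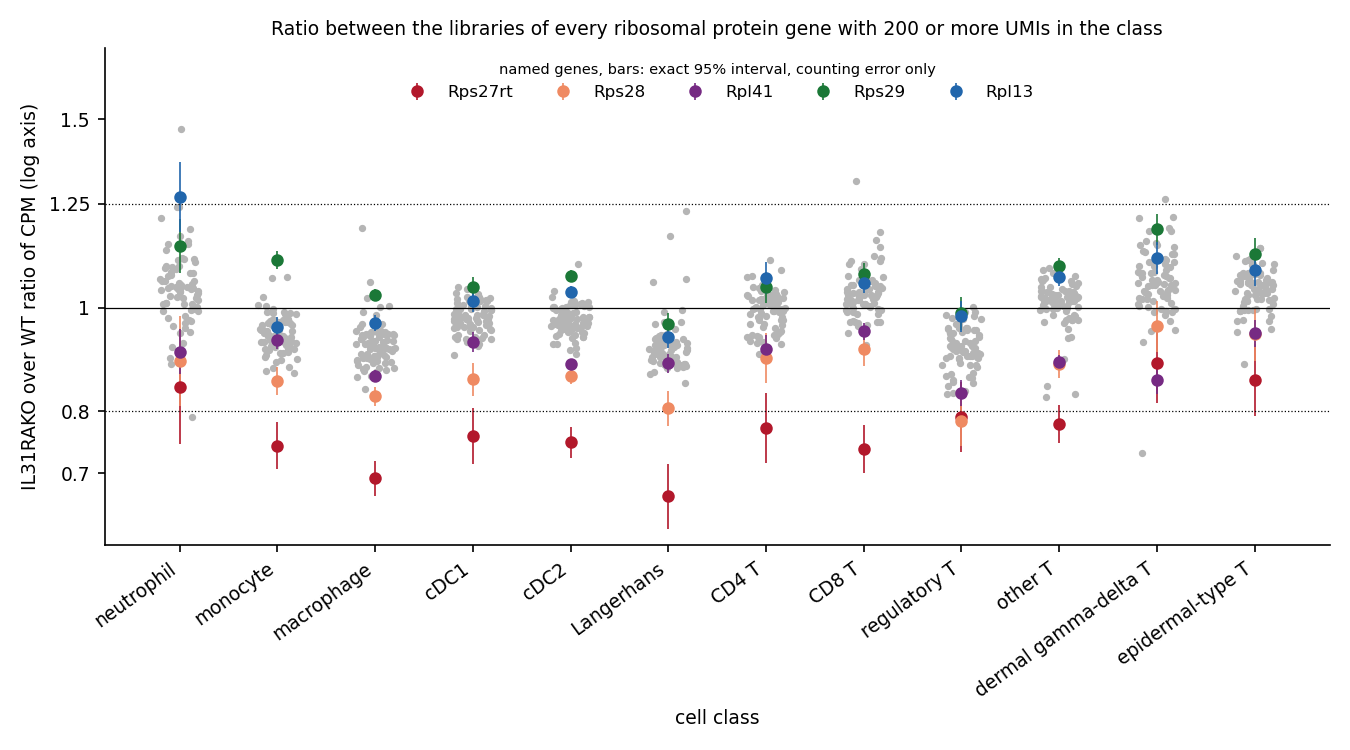
IL31RAKO over WT ratio of CPM (vertical, log axis) of each ribosomal protein gene with 200 or more UMIs in a class, for 12 classes (horizontal). Grey points are genes, coloured points with exact 95% intervals for counting error are 5 named genes, and dotted lines mark 20% lower and 25% higher; Rps27rt is the lowest named gene in 10 of the 12 classes, with Rps28 lowest in regulatory T cells and Rpl41 in dermal gamma-delta T cells.

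Only 3 of the 81 members tested in every class lay on the same side of 1 in all 12: Rps27rt, Rps28 and Rpl41, each lower in the IL31RAKO library. That is 3.70% of members, against 1.91% of all 1046 genes tested in every class, and the 12 classes share the same 2 libraries. No member lay above 1 in all 12, against 3.54% of all genes. Rps28 is a protein of the small subunit near the mRNA exit, and its ratio ran from 0.784 in regulatory T cells to 0.960. In macrophages it had 3306 CPM in WT and 2731 in IL31RAKO cells (ratio 0.826, 0.810 to 0.843), in monocytes 2648 and 2260 CPM (0.853), and in Langerhans cells 2024 and 1629 CPM (0.805). Rpl41 ran from 0.831 in regulatory T cells (6683 and 5556 CPM) to 0.950 in CD8 T cells (6710 and 6374 CPM). In cDC2 it had 7933 and 7029 CPM (0.886, 0.876 to 0.896).

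Relative to the UMIs of all ribosomal protein genes, which takes out the shift of the whole set, Rps27rt, Rps28, Rpl41 and Rpl27 were lower in all 12 classes and Rpl13, Rpl23, Rpl35, Rpl38 and Rps29 higher in all 12. Dividing by the sum of the set places some members on each side of 1 in every class. The 12 classes share the same 2 libraries, and the share of all genes one-sided on this scale was not computed. Rps29, a zinc-binding protein of the small subunit, was 1.05 to 1.17 on this scale. On the CPM scale Rps29 stood at 5882 in WT and 6523 in IL31RAKO monocytes (ratio 1.11, 1.09 to 1.13), at 5961 and 6385 in cDC2 (1.07), and at 4495 and 5320 in dermal gamma-delta T cells (1.18). Rpl38, a large subunit protein known for its part in translating Hox mRNAs in the embryo, was 1.03 to 1.14 relative to the set. By CPM it went from 2495 to 2663 in monocytes (1.07), from 2173 to 2409 in CD4 T cells (1.11) and from 2055 to 2498 in dermal gamma-delta T cells (1.22).

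Other members stood out in 1 or a few classes. Rpl22l1 in CD8 T cells was at 717 CPM in the WT and 943 in the IL31RAKO library (ratio 1.31, 1.246 to 1.39), with Rpl39 at 2415 and 2842 (1.18) and Rpsa, which also serves as a laminin receptor, at 2023 and 2339 (1.16) in the same cells. In dermal gamma-delta T cells Rps27l was at 361 and 264 CPM (0.731, 0.633 to 0.841). There 18.7% of all tested genes were past the fold downward, and a larger part of the WT cells was cycling, as given above. That applies to every gene given for this class. In epidermal-type T cells Rpl7 was at 1476 and 1679 CPM (1.14) and Rpl4 at 1296 and 1473 (1.14). In monocytes Rplp0, a stalk protein of the large subunit, was at 3761 and 3303 CPM (0.878), in macrophages Rpl12 at 904 and 759 (0.839), in Langerhans cells Rpl35a at 4350 and 3698 (0.850), and in cDC1 Rpl27 at 1981 and 1788 (0.903). Neutrophil values rested on few UMIs: Rpl22l1 had 116 in WT and 862 in IL31RAKO cells (ratio 1.47, 1.21 to 1.80), and Rpl13 and Rpl35, at 1.27 and 1.24, had ratios of 0.956 and 0.987 without scored doublets.

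Rps27rt is a gene without introns on chromosome 9 (114982366 to 114982739, minus strand, GRCm38), a copy of Rps27 on chromosome 3 (90212522 to 90213651, minus strand). Of the 277 stretches of 98 bases in its annotated transcript, the length of the transcript read, 248 (89.5%) also occur in a transcript of Rps27, with 341 identical bases in a row. Reads of either gene can therefore be assigned to the other or set aside, and counts of Rps27rt are uncertain. It took 17.7% of the UMIs of the pair in gated WT cells (17.5% to 17.8%) and 14.3% in IL31RAKO cells (14.1% to 14.4%). In the WT library the 12 classes lay between 17.2% and 18.3%, and in the IL31RAKO library between 13.8% and 15.3%, so the libraries did not overlap while the classes within a library differed little. Fibroblasts, which are no leukocytes, had 17.8% and 14.5%, and keratinocytes 16.9% and 14.2%. In droplets without a cell the share was 12.4% in WT (81 UMIs of Rps27rt beside 574 of Rps27) and 15.4% in IL31RAKO (69 beside 380), in the opposite order and from few UMIs. By CPM Rps27rt stood at 981 in WT and 679 in IL31RAKO macrophages (ratio 0.692, 0.666 to 0.719) and at 922 and 689 in cDC2 (0.748), while Rps27 itself had 4419 and 4234 CPM over all gated cells.

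Rps27l, a diverged copy of Rps27 that p53 is known to induce, shares no stretch of 98 bases with it. Its share of the pair separated myeloid from T cell classes. Mature dendritic cells had the highest share, with 17.8% in WT (16.4% to 19.2%) and 24.3% in IL31RAKO (23.0% to 25.6%), from 78 and 97 cells. Langerhans cells followed at 14.0% and 16.1%, and cDC2 (13.1% and 13.6%) and macrophages (12.7% and 13.8%) came next of the compared classes, in that order in WT and in the other in IL31RAKO. CD4 T cells were lowest of the compared classes at 4.19% (3.82% to 4.57%) and 4.07% (3.59% to 4.60%), then other T cells at 5.15% and 4.29% and CD8 T cells at 5.79% and 6.17%. Regulatory T cells (7.92% and 6.74%) and epidermal-type T cells (8.93% and 7.61%) lay between, and in dermal gamma-delta T cells WT and IL31RAKO differed, at 8.51% (8.05% to 8.98%) and 5.56% (4.89% to 6.30%). By CPM, Rps27l was at 240 in WT and 222 in IL31RAKO CD4 T cells and at 661 and 663 in macrophages. The order by CPM was not that by share. Langerhans cells had 511 and 539 CPM of Rps27l and cDC2 657 and 659. Rps27 itself was at 3144 and 2810 CPM in Langerhans cells and at 4556 and 4150 in macrophages.

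**Figure D3:**
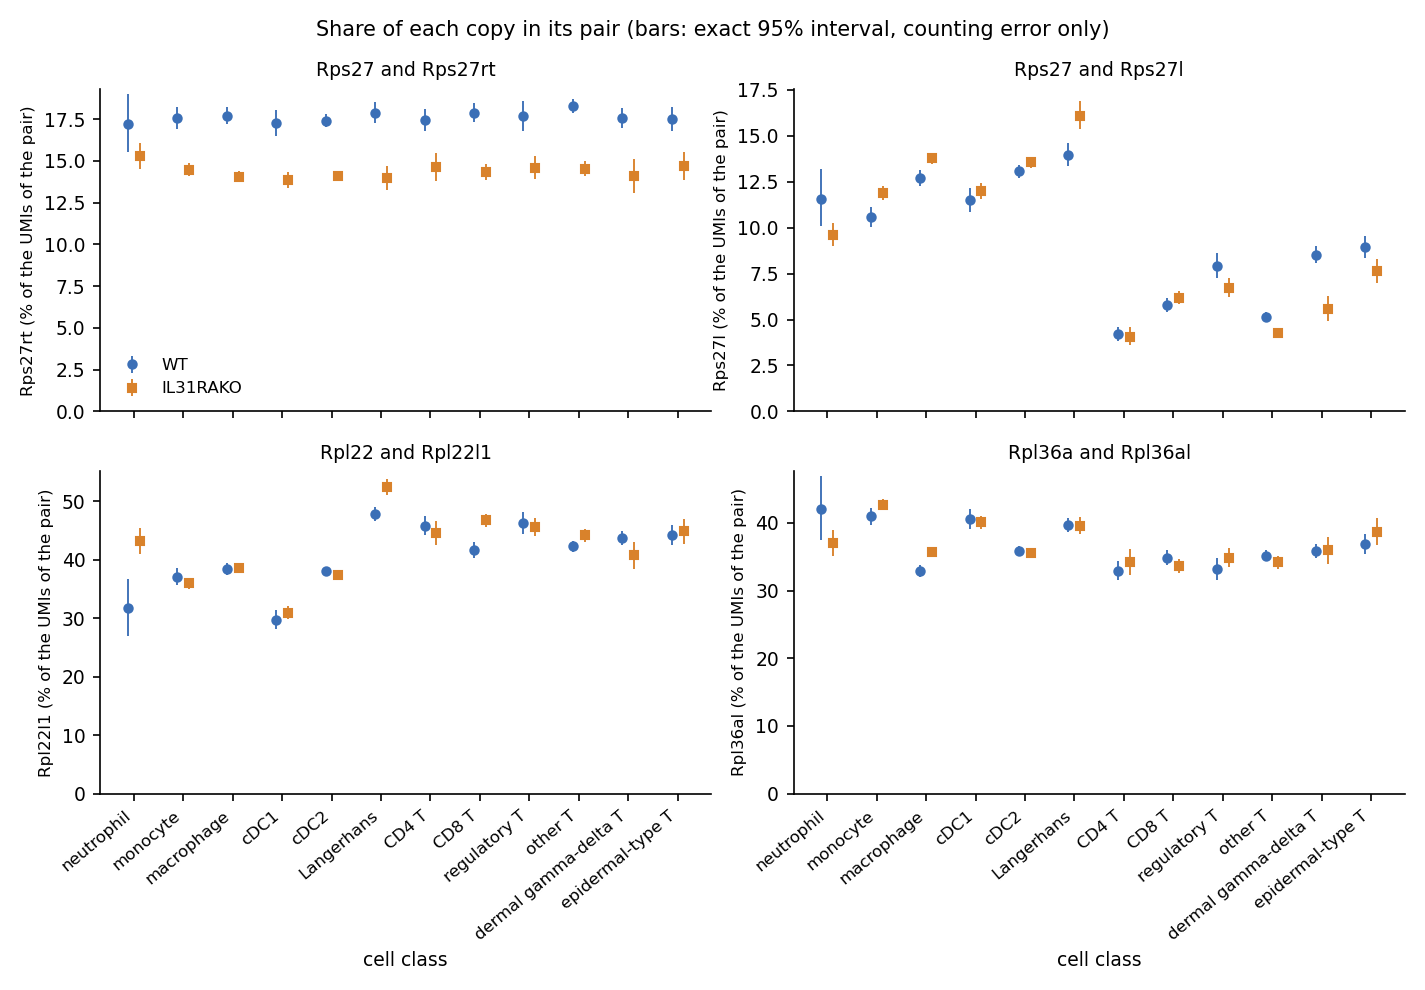
Share of a copy in the UMIs of its pair (percent, vertical) in 12 classes (horizontal) for Rps27rt, Rps27l, Rpl22l1 and Rpl36al, with WT as blue circles, IL31RAKO as orange squares and exact 95% intervals for counting error. Rps27rt is level across classes and lower in IL31RAKO throughout, Rps27l is lower in T cells, and Rpl22l1 is lowest in cDC1 and WT neutrophils and highest in Langerhans cells.

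Rpl22l1 is the copy of Rpl22, an RNA-binding protein of the large subunit needed for the development of alpha-beta T cells. It took 41.2% of the pair's UMIs in gated WT cells and 40.4% in IL31RAKO cells. Langerhans cells had the highest share of the 12 classes, 47.8% in WT (46.7% to 49.0%) and 52.4% in IL31RAKO (51.1% to 53.8%), and cDC1 had 29.8% (28.2% to 31.4%) and 30.9% (29.9% to 32.0%). Basophils were at 26.5% and 26.6%. CD8 T cells moved from 41.7% (40.3% to 43.0%) in WT to 46.7% (45.5% to 47.8%) in IL31RAKO, and neutrophils from 31.7% to 43.2%. Rpl36al varied less: it took 35.4% of its pair in WT and 36.5% in IL31RAKO cells, with the compared classes between 32.9% and 42.7%.

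The rare copies were unevenly spread. Rpl39l made up 4.04% of the UMIs of Rpl39 and Rpl39l in fibroblasts of the WT library and 4.12% in those of the IL31RAKO library, from 31 and 56 UMIs in 55 and 58 cells. Among leukocytes, dermal gamma-delta T cells had 98 UMIs in WT and 8 in IL31RAKO (29.6 and 8.96 CPM, ratio 0.303, 0.127 to 0.620) and other T cells 83 and 19 (ratio 0.276, 0.158 to 0.458), while epidermal-type T cells had 26 and 25. Macrophages had 12 and 46 (ratio 1.61, 0.839 to 3.34). Droplets without a cell had 3 and 2 UMIs of Rpl39l, 0.725% and 0.651% of the pair there. Rpl3l had 11 and 22 UMIs in neutrophils, 24 and 22 in Langerhans cells and 6 and 19 in monocytes, but 3 and 1 in all lymphoid cells. No cell held more than 3 UMIs of Rpl3l or more than 14 of Rpl39l.

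Lymphoid and myeloid cells were compared by summing UMIs over the T, NK and ILC2 cells and over the neutrophils, monocytes, macrophages and dendritic cells of each library, with library as a block (edgeR's quasi-likelihood test, Benjamini-Hochberg over 12823 genes). Here the 2 libraries serve as replicates of the lineage difference. With the block, the p-values measure how that difference varied between 2 libraries that also differ in genotype, and they rest on 4 sums. A sum over cells does not tell fewer expressing cells from less RNA per cell. With TMM scaling, 3 of 86 tested members were higher in lymphoid cells and 46 lower, against 33.9% of all genes higher and 34.4% lower. The split depended on the scaling. By library size 32 members were higher and 17 lower, against 6512 higher and 3071 lower of all 12823 genes. The median of all genes moved from 0.01 to 0.34 on the log2 scale. The members' median log2 difference was -0.24 with TMM and 0.08 by library size, under the median of all genes either way. So 15 members are described, 3 higher and 12 lower. Their call was the same with TMM, DESeq2's size factors, library size, the UMIs of other nuclear genes and the members' own UMIs. The share of all genes with the same call under every scaling was not computed.

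Higher in lymphoid cells under every scaling were Rpl13a, Rpl4 and Rpl39l. Rpl13a, a large subunit protein also known to silence inflammatory mRNAs after interferon gamma, had 6254 CPM in lymphoid and 3935 in myeloid WT cells, and 6321 and 3591 in IL31RAKO cells (log2 difference 0.42, adjusted p = 0.00156 by edgeR). Rpl4, which lines the exit tunnel, had 1914 and 1340 CPM in WT and 2016 and 1220 in IL31RAKO cells (0.29, adjusted p = 0.0119). In both libraries the lymphoid value exceeded the myeloid one. For Rpl39l the values were 13.6 and 2.63 CPM in WT and 5.12 and 2.42 in IL31RAKO cells (1.43, adjusted p = 0.00127). Not all T classes shared this. Dermal gamma-delta T cells had 29.6 CPM in WT and 8.96 in IL31RAKO, epidermal-type T cells 11.4 and 17.5, and other T cells 16.6 and 4.59. CD4 T cells had 4.09 and 0.886, CD8 T cells 3.19 and 3.37, and regulatory T cells 3.59 and 1.99. Macrophages had 2.76 and 4.44.

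Lower in lymphoid cells under every scaling were Rps29, Rps28, Rps9, Rps27a, Rpl10, Rpl35a, Rpl37a, Rps25, Rpl38 and the copies Rps27l, Rpl7l1 and Rpl3l. Rps29 had 4373 CPM in lymphoid and 6175 in myeloid WT cells, and 4705 and 6672 in IL31RAKO cells (log2 difference -0.83, adjusted p = 1.51e-05 by edgeR). Rps9, which guards decoding accuracy, had 3054 and 4197 CPM in WT and 3118 and 4185 in IL31RAKO cells (-0.77, adjusted p = 2.35e-05). Rps27a is made as a fusion to ubiquitin and had 2910 and 4100 CPM in WT and 2987 and 3899 in IL31RAKO cells (-0.77, adjusted p = 3.01e-05). Rpl10, which completes the large subunit, was at -0.72, Rpl35a at -0.72, Rps28 at -0.78, Rpl37a at -0.62, Rpl7l1 at -0.58, Rps25 at -0.53 and Rpl38 at -0.53. Rps27l had the largest difference of the well-counted members, with 314 and 613 CPM in WT and 277 and 623 in IL31RAKO cells (-1.39, adjusted p = 7.44e-07). Rpl3l had 3 lymphoid and 64 myeloid UMIs in WT and 1 and 88 in IL31RAKO cells (adjusted p = 1.28e-05), and its fold rests on those counts. In both libraries all 12 had less CPM in lymphoid than in myeloid cells.

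Among the members nearest to 0 of those past the TMM test, 6 that turned with the scaling were Rps23, Rps16, Rpl34, Rps10, Rplp1 and Rpl27a. Their log2 differences ran from -0.22 to -0.28 with TMM and from 0.044 to 0.11 by library size, where none passed the test.

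**Figure D4:**
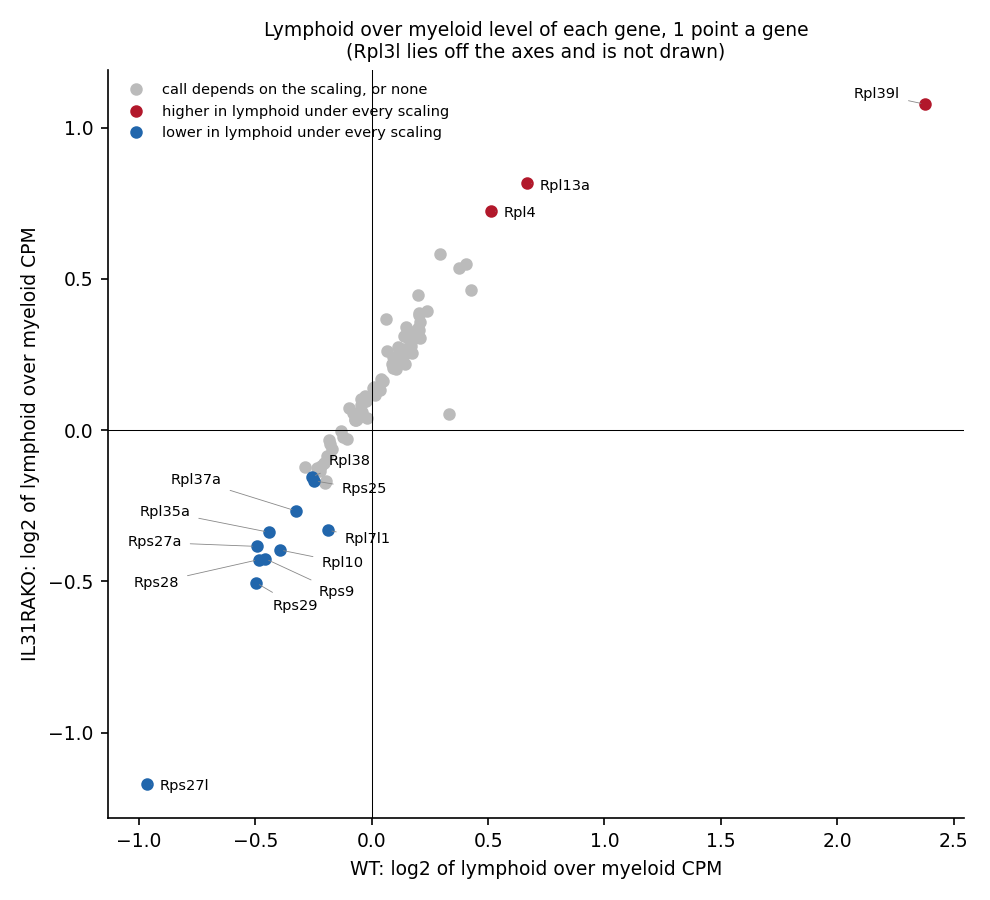
Log2 of lymphoid over myeloid CPM of each tested member (1 point a gene) in the WT library (horizontal) and the IL31RAKO library (vertical). Red and blue points are genes called higher or lower in lymphoid cells under every scaling, grey points the rest; Rps27l lies at -0.96 and -1.17 and Rpl13a at 0.67 and 0.82, while Rpl3l is outside the axes.

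Within the set, the make-up of the ribosomal protein mRNA differed between classes in much the same way in both libraries. Over the 12 classes, the shares of the libraries correlated with r = 0.998 for Rps9, 0.988 for Rpl13a and 0.993 for Rpl4, given as a description of classes that share their library. As a share of all ribosomal protein UMIs, Rps9 was highest in neutrophils, at 3.11% in WT and 3.13% in IL31RAKO. It was 2.16% and 2.19% in monocytes, 2.12% and 2.19% in macrophages and between 1.30% and 1.46% in the 6 T classes. Rpl13a ranged from 1.70% and 1.61% in monocytes to 3.09% and 3.09% in CD4 T cells, and the T classes (2.52% to 3.09%) did not overlap the myeloid classes (1.61% to 1.93%). Rpl4 was lowest in macrophages, at 0.420% and 0.419%, and highest in CD8 T cells, at 0.922% and 0.956%, with Langerhans cells among the T cells at 0.857% and 0.882%. Macrophages had the highest shares of Rps29 (3.59% and 4.03%), Rpl37a (3.72% and 3.55%) and Rps28 (1.43% and 1.29%). Rpl10 was highest in cDC1, at 2.00% and 2.13%, and lowest in regulatory T cells, at 1.18% and 1.17%.

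Other members varied little. Rpl27a was the least variable over the 12 classes, at 1.03% to 1.12% of the set in WT (coefficient of variation 2.84%) and 1.04% to 1.12% in IL31RAKO (2.58%). After it came Rps10 (4.42% and 3.64%), Rps3a1 (3.98% and 4.33%) and Rpl23 (4.92% and 4.68%). At the other end of the subunit proteins were Rps9 (29.7% and 30.0%), Rpl13a (24.7% and 26.3%), Rpl4 (24.1% and 24.2%) and Rps29 (21.9% and 23.8%). These coefficients are a description over classes that share a library and, through free RNA, part of their counts.

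**Figure D5:**
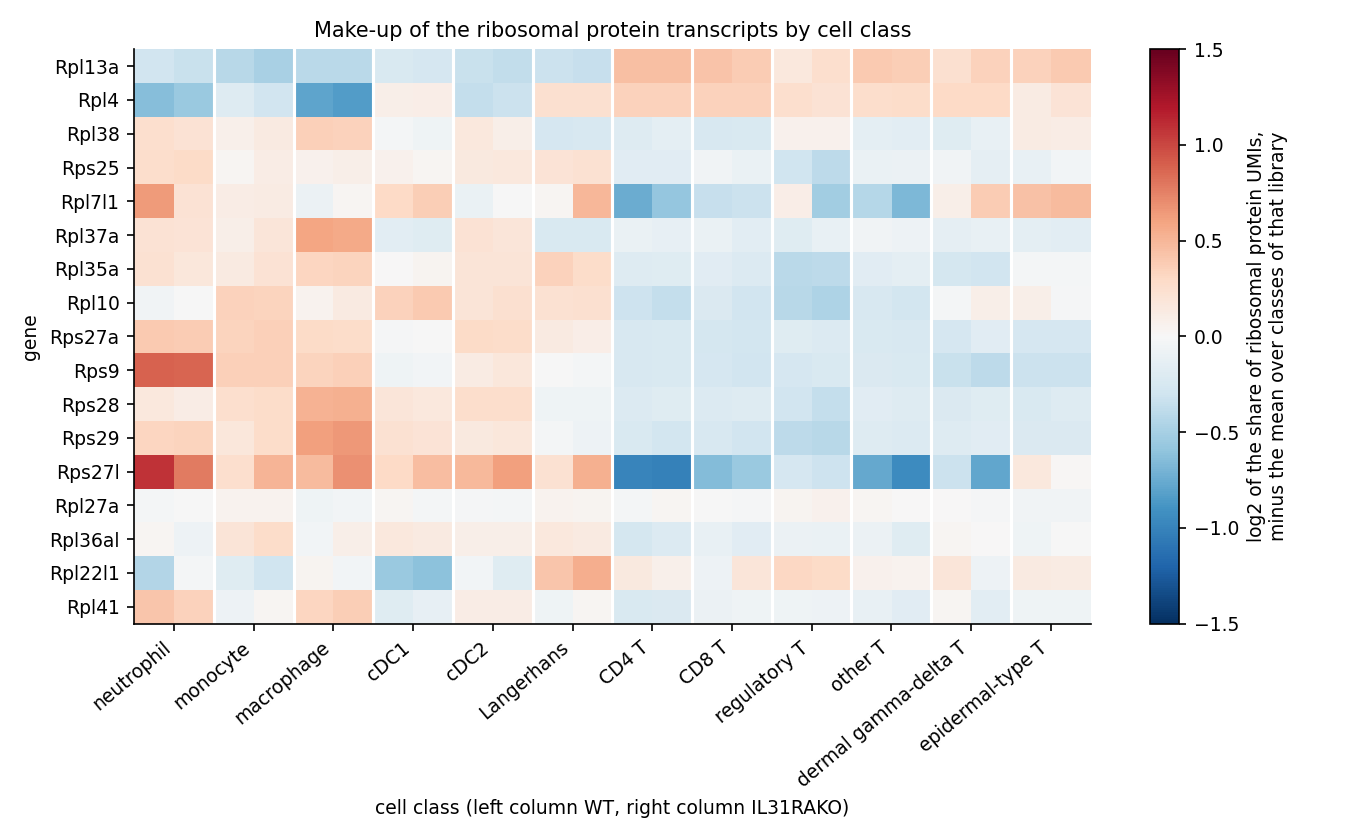
Colour gives the log2 share of ribosomal protein UMIs of a gene in a class, minus that gene's mean over the 12 classes of the same library (left column WT, right column IL31RAKO). Rows are 17 genes, among them 13 of the 15 called under every scaling and Rpl27a as the least variable; Rpl13a and Rpl4 are red in T cells and blue in macrophages, Rps9 is darkest in neutrophils, and paired columns look alike for most genes, Rpl7l1 and Rps27l being exceptions in some classes.

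Other genes of the translation machinery were read from lists. Fau, which yields the small subunit protein Rps30, was the 1 of 3 other ribosome parts that passed the test between lineages, with 4005 CPM in lymphoid and 4520 in myeloid WT cells and 4123 and 4480 in IL31RAKO cells (log2 difference -0.47, adjusted p = 5.2e-04 by edgeR with TMM). Gnb2l1, the scaffold Rack1, did not pass. Of 6 elongation factors, Eef2, the translocase, was higher in lymphoid cells (1149 and 748 CPM in WT, 1250 and 672 in IL31RAKO) and Eef1b2 lower (-0.34), although its CPM was 539 and 584 in WT and 566 and 532 in IL31RAKO cells. These calls, like all those of the lists, are with TMM scaling, under which 33.9% of all genes were higher and 34.4% lower. Initiation factors had 3 higher and 10 lower of 30, with Eif4ebp1, an inhibitor of cap-dependent initiation, at 42.4 and 96.6 CPM in WT and 41.4 and 114 in IL31RAKO cells (-1.65). Among 15 genes with TOP-type mRNA outside the ribosome 2 were higher and 3 lower, among 32 genes of ribosome biogenesis 6 and 9, and among 13 regulators of TOR and Myc 5 and 4. For the mitochondrial ribosome 10 of 77 were higher and 43 lower, with a median of -0.26, close to the -0.24 of the cytosolic members on the same scaling.

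Between the libraries, the lists are described in regulatory and dermal gamma-delta T cells, chosen after their values were seen. In regulatory T cells, 9 of 34 tested genes of the mitochondrial ribosome were past the fold downward and none upward, with a median ratio of 0.873, against 7.13% of all tested genes downward and a median of 0.997, and 3 of 10 genes of ribosome biogenesis were past it downward, with a median of 0.842. Mrpl28 had 87.7 CPM in WT and 48.2 in IL31RAKO regulatory T cells (ratio 0.550, 0.417 to 0.724), and Nhp2, a protein of the RNPs that modify ribosomal RNA, 92.7 and 55.6 (0.600, 0.462 to 0.779). These are the cells in which 80 of 81 cytosolic members also lay below 1. In dermal gamma-delta T cells 9 of 45 genes of the mitochondrial ribosome were past the fold downward, near the 18.7% of all tested genes. Their median ratio was 0.851 and that of all tested genes 0.958, while the cytosolic members' median was 1.05 and the elongation factors' 1.10.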

How the data were processed

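Live CD45+ skin cells of 2 libraries, WT and IL31RAKO, each from 4 pooled mice, were measured. The deposited values are raw UMI counts per gene and barcode, with no cell filter applied. Per the submitters' processing notes, Cell Ranger 3.1, Seurat 3.2.2 and mm10 were used. The libraries held 57000499 and 71333292 UMIs. The members, gene lists and tests were chosen with earlier results of these data known.

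Cells were gated by marker lists: at least 3 UMIs from 3 distinct markers (2 for short lists), a Poisson p under 0.001 against 20% free RNA, and no list of a second lineage. Doublets stayed in (removed in an alternative by scanpy 1.11.5's Scrublet, 0.8% per 1000 cells); cells passing lists of several lineages, 347 and 659, were left out. Free RNA came from barcodes with 10 to 50 UMIs. Shares have exact Clopper-Pearson and ratios exact conditional 95% intervals. Lineages were tested with edgeR 4.0.16 (quasi-likelihood, TMM, filterByExpr, library block), with DESeq2 1.42.0 and other scalings as alternatives. Further alternatives for gating, depth, doublets and free RNA are given in the closing section. On simulated data the edgeR test recovered 76.3% of 93 genes changed by a log2 of 1 and 100% of 107 changed by 2. Among the 12699 genes tested there, 13 calls were false, 6.81% of the calls. That simulation changed few genes, while 33.9% of genes were called higher and 34.4% lower in the data. It therefore could not check the choice of scaling.

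Named were the 5 highest and lowest members by CPM, the 10 highest and lowest in the lineage test, up to 3 a side per class by interval bound, one-sided members and copies; a few genes that this rule names are not reported here. Start windows and the translation genes shown between lineages were picked after values were seen.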

Additional observations from a re-analysis of the deposited data

Results flagged for a closer look

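The IL31RAKO over WT ratio of the summed ribosomal protein share went in opposite directions in different classes, and each of these directions held under all 11 alternatives. It was above 1 in CD8 T cells (1.02), epidermal-type T cells (1.04) and other T cells (1.01). It was below 1 in monocytes (0.947), macrophages (0.918), cDC1 (0.979), cDC2 (0.969), Langerhans cells (0.911) and regulatory T cells (0.922). The difference between these classes was not tested, since each class has 1 library a genotype.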

How the results depend on the processing

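The directions of 9 classes held under all 11 alternatives (3 above 1, 6 below). The share over all gated cells, 22.0% in WT and 21.0% in IL31RAKO, was 21.99% and 20.9% with doublets removed, 22.07% and 21.11% in cells with 1000 or more UMIs, 22.17% and 21.14% under a mitochondrial limit of 5%, 21.7% and 20.5% with a stricter gate, and 22.15% and 21.07% with free RNA subtracted. The neutrophil ratio of 1.04 was 0.870 with doublets removed, 0.930 as a mean of per-cell shares, 0.927 after thinning and 0.913 over equally weighted depth bins, and between 1.02 and 1.254 under the other 7 alternatives, highest with free RNA subtracted. The ratio was 0.991 in dermal gamma-delta T cells with a stricter gate and 1.003 in CD4 T cells with free RNA subtracted. Rpl13 and Rpl35 in neutrophils were at 0.956 and 0.987 with doublets removed. The cause of these turns was not tested. Pairs of a member and a class past the fold upward numbered 4, and 2 with a minimum of 1000 UMIs, 9 with no minimum and 7 with a stricter gate. Downward they numbered 12, and 27 with no minimum and 25 with doublets removed. For these alternatives the share of all genes past the fold is not given. Neutrophil medians thinned to 2000 UMIs were 17.4% and 16.2%, from fewer and deeper cells. The Rps27l share over gated IL31RAKO cells was 10.8% with doublets removed. Members higher and lower in lymphoid cells, 3 and 46 with TMM, numbered 32 and 17 by library size, 35 and 12 by the UMIs of other nuclear genes, and 36 and 22 by the members' own UMIs, and 6 were higher without epidermal-type T cells. Under these scalings, in the same order from TMM on, all 12823 tested genes gave 4342 and 4405, 6512 and 3071, 6797 and 3086, and 6256 and 3208. By library size the log2 differences of Rps23, Rps16, Rpl34, Rps10, Rplp1 and Rpl27a were 0.11, 0.10, 0.084, 0.078, 0.066 and 0.044. By the other genes they were 0.13, 0.13, 0.11, 0.10, 0.087 and 0.065, and by the members' UMIs 0.068, 0.067, 0.047, 0.041, 0.028 and 0.0063. Without the library block the counts of members were 3 and 46. Between the genotypes no paired analysis was possible because each has 1 library, and only the lineage test pairs sums within a library. Free RNA subtraction, leaving out cycling cells or shared barcodes, depth bins, unthinned shares, leaving out epidermal-type T cells and scaling by the members' UMIs were chosen after seeing the data. Few UMIs limit the rare copies and neutrophils, what depth limits elsewhere was not measured, and differences between libraries have no replicate check.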
